A study of Mus musculus with 9 samples.

Results

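A set of 10 genes of the lymphocytes that reside in or pass through the kidney were described in the cortex of diabetic mice given an herbal formula, of diabetic mice given saline, and of lean mice. They are the T cell genes Cd3e, Cd3g, Cd3d and Cd8a, the chemokine gene Ccl5, the cytotoxic granule gene Nkg7, and the B cell genes Ighm, Cd79a, Cd79b and Ms4a1. They were picked by name with earlier results of these data known, so counts over them beside all genes are a description. The 10 are among 22180 genes that had a probe set with a single gene symbol. All 10 passed the filter on dim genes, which kept 17740. RNA was taken from the kidney of 20-week-old males on the C57BLKS/J background and hybridised to 9 Affymetrix arrays, 3 per group, each labelled a separate biological replicate. The db/db+TSF group is homozygous for the db mutation, a germline mutation of the leptin receptor gene. It was given Tang-shen Formula (TSF), a mixture of Chinese herbs, through gavage, at a daily 2.4 g/kg over 12 weeks. The db/db group has the same genotype and received saline. The db/m group carries a single mutant copy, stays lean, and has no gavage mentioned in its labels. Each db/db arm held 9 mice, and 3 arrays of each were analysed here. The labelled tissue is cortex, and as a tissue check the proximal tubule genes Slc34a1 and Lrp2 were read. Both were high in every array. They measured 12.24 and 11.05 in db/db+TSF, 12.17 and 11.15 in db/db and 12.17 and 11.16 in db/m on the log2 scale. These genes mark kidney tissue and cannot tell cortex from whole kidney.

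T cells recognise antigen through a receptor that signals by way of the CD3 chains, encoded by Cd3e, Cd3g and Cd3d, and the CD8 coreceptor, whose alpha chain is the product of Cd8a, marks cytotoxic T cells. Nkg7 encodes a membrane protein of the cytotoxic granules of NK and CD8 T cells. Ccl5, also called RANTES, is a chemokine that draws T cells and monocytes into tissue, and it is made by activated T and NK cells and by injured tubule cells. On B cells, Ighm encodes the heavy chain of IgM, Cd79a and Cd79b the signalling chains of the B cell receptor, and Ms4a1 the surface protein CD20. In a healthy kidney these cells are a small fraction of the cortex, and in a whole-tissue sample fewer cells of a type and less RNA per cell cannot be told apart.

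All values below are log2(intensity + 1) unless another scale is named. A gene rose or fell only where the Benjamini-Hochberg adjusted p over all 17740 genes was under 0.05 in a limma fit to all 9 arrays, a linear model that pools the spread across genes. Of the arrays, db/db replicate 3 stood apart in neutrophil genes and db/m replicate 2 in adipocyte genes. Ccl5 fell in both diabetic groups relative to db/m, Cd3e fell in both, and Cd3g and Nkg7 fell in db/db+TSF. Of the 10 genes, 4 fell and 0 rose in db/db+TSF against db/m, where 1.92% of all genes fell and 1.22% rose. In db/db against db/m 2 fell and 0 rose, where 0.462% of all genes fell and 0.592% rose. None of the 10 passed between db/db+TSF and db/db, where 0% of all genes did, and the smallest adjusted p among the 10 there was 0.384. The median difference from db/m over the 10 was -0.61 for db/db+TSF and -0.51 for db/db, beside 0.00 and 0.01 over all genes. All 10 lay below 0 in both, where 50% and 47.8% of all genes did. Both of these comparisons use the same 3 db/m arrays.

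**Figure D1:**
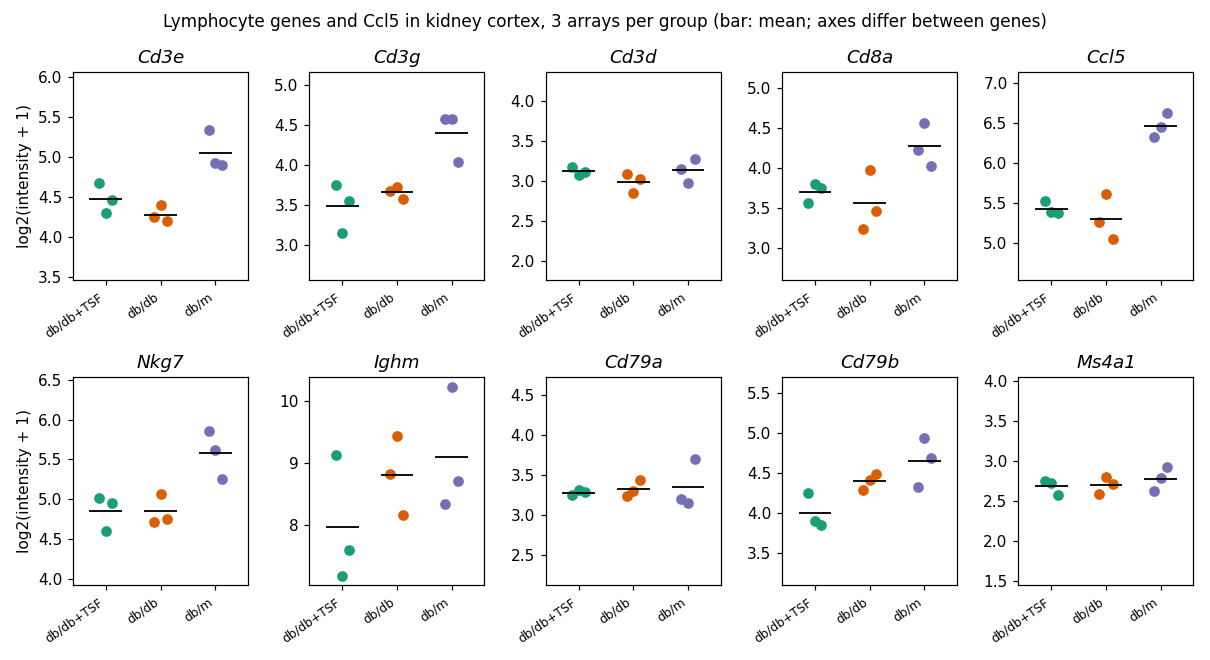
Level of each of the 10 genes as log2(intensity + 1), with a point per array and a bar at the mean of the 3 arrays of a group, from db/db+TSF on the left to db/m on the right. In Cd3e, Cd3g, Cd8a, Ccl5 and Nkg7 the 6 diabetic arrays all lie below the 3 db/m arrays, while Cd3d, Ighm, Cd79a and Ms4a1 overlap between all groups.

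Cd3e measured 4.67, 4.29 and 4.46 in the db/db+TSF arrays, 4.24, 4.39 and 4.19 in the db/db arrays and 5.33, 4.92 and 4.90 in the db/m arrays. Every diabetic array lay below every db/m array. The gene was 1.72-fold lower in db/db than in db/m (log2 fold change of -0.78, SE 0.14; limma adjusted p = 0.0239) and 1.49-fold lower in db/db+TSF than in db/m (-0.58, SE 0.14; adjusted p = 0.0467). The first call was lost on omitting db/db replicate 1, db/db replicate 3 or db/m replicate 1, with limma adjusted p-values of 0.0951, 0.09 and 0.0688, and the second held in 1 of 9 fits that each left out an array, that without db/db+TSF replicate 1 (0.047). The others gave adjusted p-values of 0.0556 to 0.169, the largest of them without db/db+TSF replicate 2.

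Cd3g, which lies beside Cd3e in the genome, measured 3.75, 3.15 and 3.55 in db/db+TSF, 3.67, 3.73 and 3.58 in db/db and 4.57, 4.58 and 4.04 in db/m. Here too the diabetic arrays all lay below the lean ones, the nearest pair being 3.75 in db/db+TSF replicate 1 and 4.04 in db/m replicate 3. It fell 1.89-fold in db/db+TSF against db/m (-0.92, SE 0.17; limma adjusted p = 0.0168), and the difference of -0.74 in db/db against db/m did not pass (SE 0.17, limma adjusted p = 0.0711). The db/db+TSF call held in 5 of 9 fits that omitted an array, with a largest adjusted p of 0.0707 without db/m replicate 1, and was also lost without db/db+TSF replicate 2 (0.0581) or 3 (0.0575) or db/m replicate 2 (0.0586). The db/db difference passed without db/m replicate 3 (limma adjusted p = 0.0384) and without db/db+TSF replicate 2 (0.0448).

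Cd3d, the third chain, was dim. Its arrays measured 3.18, 3.07 and 3.11 in db/db+TSF, 3.09, 2.85 and 3.03 in db/db and 3.15, 2.97 and 3.28 in db/m, so all groups overlapped. Medians of the arrays over all probe sets lay between 3.50 and 3.61, so this probe set read below the middle of the array. Its difference was -0.14 in db/db against db/m, with a 95% interval of -0.37 to 0.09, and -0.01 in db/db+TSF against db/m (-0.25 to 0.22). These intervals do not reach the differences measured for Cd3e or Cd3g, though whether the genes of the cluster differ from each other was not tested. Cd3g was itself close to the array medians in the diabetic groups, with means of 3.48 in db/db+TSF and 3.66 in db/db.

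The CD3 genes are neighbours on mouse chromosome 9, and their promoters are shown because Cd3e and Cd3g lay below db/m in every diabetic array while Cd3d, which lies between them, overlapped. In RefSeq's GRCm38 annotation Cd3g spans 44969572 to 44980431, Cd3d 44981769 to 44987052 and Cd3e 44998735 to 45009663. Cd3g and Cd3d are transcribed away from each other across a gap of 1337 bases, and the whole cluster covers 40092 bases. Each sequence runs 5′ to 3′ from 250 bases before the gene's start to 50 bases after it, from RefSeq (GRCm38.p6); Cd3g is on the minus strand at chr9:44980382-44980681, Cd3d on the plus strand at chr9:44981536-44981835 and Cd3e on the minus strand at chr9:45009562-45009861. Capitals mark matches on either strand to the E-box CACCTG, the ETS motif AGGAAG, the GATA motif AGATAA, the RUNX motif TGTGGT and the interferon-stimulated response element.
Cd3g: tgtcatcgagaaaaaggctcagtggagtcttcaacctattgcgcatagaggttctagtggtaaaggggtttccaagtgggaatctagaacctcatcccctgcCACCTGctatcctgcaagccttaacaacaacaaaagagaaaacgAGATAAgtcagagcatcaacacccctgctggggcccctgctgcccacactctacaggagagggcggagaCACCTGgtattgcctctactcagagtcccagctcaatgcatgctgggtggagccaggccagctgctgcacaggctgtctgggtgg
Cd3d: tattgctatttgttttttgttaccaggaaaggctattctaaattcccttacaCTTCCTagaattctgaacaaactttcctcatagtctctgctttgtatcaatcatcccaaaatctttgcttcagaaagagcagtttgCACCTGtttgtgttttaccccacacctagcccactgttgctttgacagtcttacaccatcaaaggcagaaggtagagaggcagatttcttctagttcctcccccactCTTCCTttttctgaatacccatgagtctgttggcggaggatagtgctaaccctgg
Cd3e: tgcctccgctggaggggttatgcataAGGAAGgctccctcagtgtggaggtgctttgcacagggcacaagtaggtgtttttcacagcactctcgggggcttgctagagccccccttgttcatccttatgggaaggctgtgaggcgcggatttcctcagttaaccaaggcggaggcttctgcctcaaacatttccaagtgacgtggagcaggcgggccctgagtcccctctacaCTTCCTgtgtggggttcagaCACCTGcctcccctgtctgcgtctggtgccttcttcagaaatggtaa

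The E-box CACCTG was present in all 3 windows, at -148 and -35 in Cd3g, -112 in Cd3d and 4 in Cd3e, counted from the start site with the base before it as -1. Of 32851 promoter windows of the same length, 20.2% hold it. The ETS motif AGGAAG, present in 35.4% of windows, was found at -198 and -5 in Cd3d and at -224 and -17 in Cd3e, and the GATA motif AGATAA, present in 11.2%, was found at -104 in Cd3g. The RUNX motif TGTGGT (16.8% of windows) and the interferon-stimulated response element (3.44%) had no match in these windows. No motif searched separated the pair that was lower from Cd3d. The probe set of Cd3d was dim, so its overlap does not establish that it behaved otherwise than Cd3e and Cd3g. Promoter windows were matched for 6 of the 10 genes.

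Cd8a averaged lowest in db/db and highest in db/m, as did Cd3e. It measured 3.57, 3.80 and 3.75 in db/db+TSF, 3.24, 3.98 and 3.46 in db/db and 4.23, 4.57 and 4.03 in db/m, and db/db replicate 2 came within 0.05 of the lowest db/m array. The differences of -0.72 in db/db (SE 0.19, limma adjusted p = 0.101) and -0.57 in db/db+TSF (SE 0.19, limma adjusted p = 0.138) against db/m did not pass. Without db/db replicate 2 the first did (-0.93, limma adjusted p = 0.0304). Cd8b1, which encodes the beta chain of the same coreceptor, ranged over 3.96 to 4.05 in db/db+TSF, 3.71 to 3.82 in db/db and 3.91 to 4.90 in db/m, and did not pass either (adjusted p = 0.109 for db/db against db/m, limma).

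Ccl5 had the smallest adjusted p of the 10 in both comparisons with db/m. The gene lies on chromosome 11, from 83525778 to 83530518 in GRCm38. The arrays measured 5.52, 5.39 and 5.37 in db/db+TSF, 5.26, 5.61 and 5.05 in db/db and 6.32, 6.45 and 6.63 in db/m. The highest diabetic array, db/db replicate 2, stood 0.70 below the lowest db/m array. On the linear scale the intensities were 45.01, 40.91 and 40.4 in db/db+TSF, 37.2, 47.89 and 32.07 in db/db and 78.65, 86.14 and 98.17 in db/m. Ccl5 fell 2.23-fold in db/db against db/m (-1.16, SE 0.14; limma adjusted p = 0.00335), which placed it at rank 24 of 17740 genes by p. It fell 2.05-fold in db/db+TSF against db/m (-1.04, SE 0.14; limma adjusted p = 0.00344, rank 68). Both calls held whichever of the 9 arrays was omitted: the largest adjusted p was 0.0199 for db/db and 0.02 for db/db+TSF. In the limma fit without moderation, which does not pool the spread across genes, neither passed (0.0937 and 0.0733).

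Nkg7 measured 5.02, 4.60 and 4.96 in db/db+TSF, 4.72, 5.07 and 4.76 in db/db and 5.86, 5.62 and 5.26 in db/m. The diabetic groups overlapped each other, and all 6 of their arrays lay below db/m, the nearest by 0.19. It fell 1.65-fold in db/db+TSF against db/m (-0.72, SE 0.17; limma adjusted p = 0.0429). The difference in db/db against db/m was nearly the same size and did not pass (-0.73, SE 0.17; limma adjusted p = 0.0681). The db/db+TSF call held in 2 of 9 fits that each left out an array, those without db/db replicate 2 or db/m replicate 3. Elsewhere its adjusted p was 0.0515 to 0.151, the largest coming without db/db+TSF replicate 2.

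**Figure D2:**
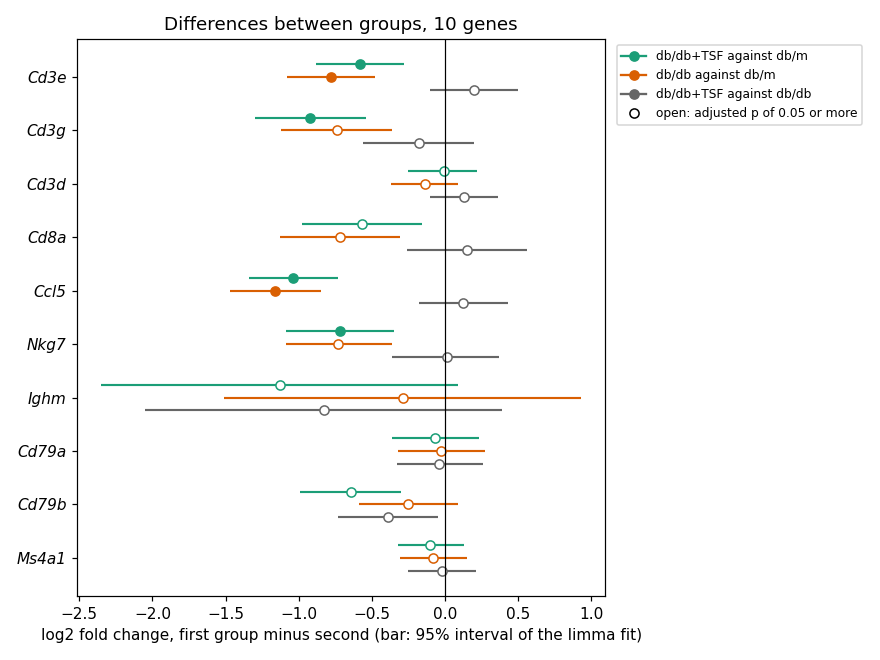
Log2 fold change of each gene with its 95% interval from the limma fit, for db/db+TSF against db/m, db/db against db/m and db/db+TSF against db/db; filled points passed an adjusted p of 0.05. Ccl5 lies near -1 in both comparisons with db/m, the intervals of Ighm are the widest, and all points for db/db+TSF against db/db are open.

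None of the 4 B cell genes passed in any comparison. Cd79b measured 4.24, 3.90 and 3.85 in db/db+TSF, 4.28, 4.41 and 4.48 in db/db and 4.32, 4.94 and 4.68 in db/m. The db/db+TSF arrays lay below all others, by 0.04 from the lowest db/db array and 0.08 from the lowest db/m array. Its difference in db/db+TSF against db/m was -0.64 (SE 0.16) with a limma adjusted p of 0.0505, at the edge of the threshold. It passed under 6 of 13 alternatives that kept all 9 arrays or both groups, for example at 0.0362 after median scaling, and also without db/db+TSF replicate 1 (0.0437) or db/m replicate 1 (0.0265). In db/db against db/m the difference was -0.25 (95% interval -0.59 to 0.09).

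Cd79a and Ms4a1 were dim and did not separate the groups. Cd79a averaged 3.28 ± 0.03 in db/db+TSF, 3.32 ± 0.10 in db/db and 3.35 ± 0.30 in db/m (SD, n = 3), and its spread in db/m came from replicate 3, at 3.69 against 3.20 and 3.15. Ms4a1 averaged 2.68 ± 0.09 in db/db+TSF, 2.70 ± 0.10 in db/db and 2.78 ± 0.14 in db/m, close to the filter level of 2.65. For both, the 95% intervals against db/m ran from -0.36 to 0.27 at the widest. Signal this dim may be background, and a change in these transcripts may then not be visible.

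Ighm, the IgM heavy chain gene on chromosome 12, spread widely within each group. Its brightest probe set measured 9.13, 7.17 and 7.59 in db/db+TSF, 8.82, 9.43 and 8.15 in db/db and 8.33, 10.24 and 8.70 in db/m. On the linear scale it ran from 143.2 in db/db+TSF replicate 2 to 1210 in db/m replicate 2. The difference was -0.29 (SE 0.55) in db/db against db/m and -1.13 (SE 0.55) in db/db+TSF against db/m, with limma adjusted p-values of 0.849 and 0.335. Db/db+TSF replicate 1 lay within the range of the other groups, and the other arrays of its group lay below all of them.

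A total of 10 probe sets carried the Ighm symbol, 7 alone and 3 with other immunoglobulin symbols. All 7 passed the filter, and the groups overlapped in every comparison for each of the 10. Of the single-symbol probe sets, 17284605 measured 7.39, 5.36 and 5.32 in db/db+TSF, 6.71, 6.77 and 6.08 in db/db and 6.46, 7.27 and 6.80 in db/m, and 17284349 measured 7.09, 5.40 and 5.43 in db/db+TSF, 6.39, 6.04 and 5.83 in db/db and 6.30, 6.18 and 6.38 in db/m. In both, db/db+TSF replicate 1 was the highest of the 9 arrays and the other arrays of that group were the lowest. The 2 probe sets with 3 symbols each showed the same gap: 17284356 measured 9.30, 6.85 and 6.20 in db/db+TSF, and 17284354 measured 8.43, 6.50 and 6.20. Probe set 17284633, shared with 1 variable region symbol, was lower in those arrays by less, at 6.26, 5.78 and 5.62.

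The other single-symbol Ighm probe sets did not follow this pattern throughout. Probe set 17284507 was highest in db/db replicate 1, at 6.81, and 17284660 ranged from 2.14 in db/db+TSF replicate 2 to 5.05 in db/db+TSF replicate 1. Probe set 17284648 lay between 4.12 and 5.37, both in db/db+TSF. Probe set 17284503, near the filter level, was highest in db/db replicate 3, at 3.30. Across the 9 arrays the Pearson r of the other 6 with the brightest ran from 0.02 to 0.90. In a limma fit over 18754 probe sets the adjusted p-values of the 7 ran from 0.346 to 0.997, so no Ighm probe set passed in any comparison.

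**Figure D3:**
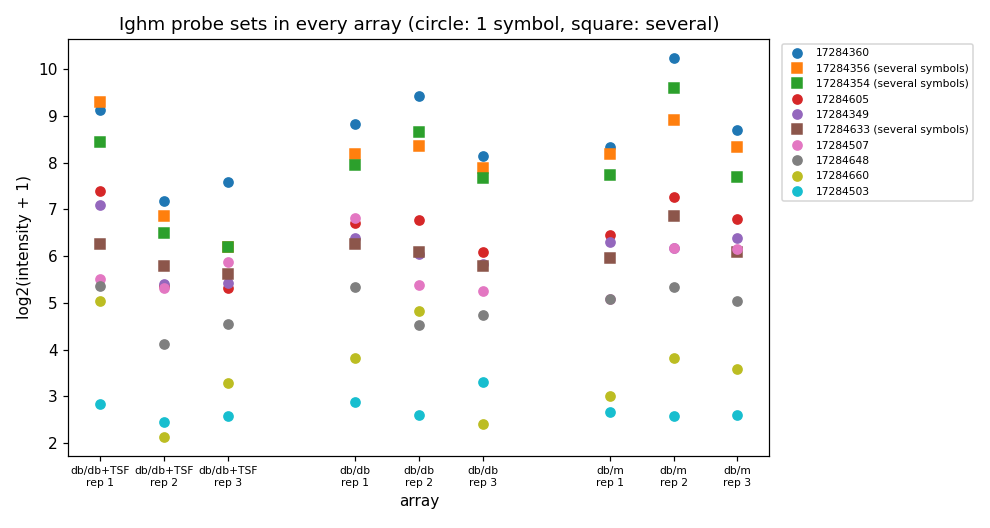
Level of each of the 10 Ighm probe sets as log2(intensity + 1) in every array, with circles for probe sets of a single symbol and squares for those shared with other immunoglobulin symbols. In the brightest probe set db/m replicate 2 is the highest array at 10.24 and db/db+TSF replicate 2 the lowest at 7.17.

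Within the diabetic mice no difference between TSF and saline passed for any of the 10 genes. Of the 10, 5 lay above and 5 below 0 in db/db+TSF against db/db, with a median of -0.01, beside -0.02 over all genes, 56.1% of which lay below 0. Ccl5 differed by 0.12 (95% interval -0.18 to 0.43), Cd3e by 0.20 (-0.10 to 0.50), Cd8a by 0.15 (-0.26 to 0.56) and Nkg7 by 0.01 (-0.36 to 0.37). The interval of Ccl5 stops short of the 1.16 by which db/db lay under db/m. Cd79b was the single gene of the 10 whose groups did not overlap (-0.39, SE 0.16; limma adjusted p = 0.384), where 12.3% of all genes were lower in the same sense. In limma 0 of 17740 genes passed in this comparison, while 2079 (11.7%) had an unadjusted p under 0.05, and the fit without moderation also called 0.

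Against db/m, 5 of the 10 genes had no overlap and lower values in db/db (Cd3e, Cd3g, Cd8a, Ccl5 and Nkg7), where 8.28% of all genes were so, and 6 of 10 in db/db+TSF (those 5 and Cd79b), where 12.4% were. Over the 9 arrays the Pearson r was 0.96 between Nkg7 and Cd3g, 0.94 between Nkg7 and Cd3e and 0.87 between Ccl5 and Cd3e, with Spearman rho of 0.90, 0.88 and 0.85. These pooled values carry the gap between lean and diabetic groups. After each group's mean was taken off, r stayed at 0.88 and 0.86 for Nkg7 with Cd3g and Cd3e and was 0.71 between Cd3e and Cd3g, while Nkg7 gave -0.41 with Cd3d. Ccl5 gave 0.08 with Cd3e, -0.04 with Cd3g, -0.17 with Cd3d and 0.07 with Nkg7. Ccl5 also gave 0.34 with Cd8a and 0.66 with Ms4a1. Over all 45 pairs these within-group values ran from -0.96 to 0.88, with a median of 0.08. The lowest was between the T cell genes Cd3d and Cd8a, and Cd3g gave -0.77 with Cd79a. Nkg7 thus ran with Cd3e and Cd3g within groups, as a description of 9 arrays in which large values of either sign occurred. Ighm ran with Cd79b within groups (0.76).

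The genes whose pattern over the 9 arrays was most like that of Ccl5, among 17730 others, were Cox15 (Pearson r 0.989), an assembly factor of cytochrome oxidase, Aldh3a2 (0.974), a fatty aldehyde dehydrogenase, and Ttc13 (0.972). Against db/m, Cox15 did not pass in db/db+TSF or db/db (limma adjusted p = 0.11 and 0.0936), nor did Ttc13 (0.0939 and 0.172). Aldh3a2 fell relative to db/m by 0.48 in db/db+TSF and by 0.51 in db/db (limma adjusted p = 0.0163 and 0.0233), calls that held in 5 and 4 of 9 fits that each left out an array (largest adjusted p 0.0687 without db/db+TSF replicate 3 and 0.0911 without db/db replicate 3). The nearest to the mean of the CD3 genes were Fbln7 (0.992), Pdk3 (0.973), a pyruvate dehydrogenase kinase, and Cpe (0.964), a carboxypeptidase that processes prohormones. Fbln7 differed from db/m by -0.55 in db/db+TSF and -0.62 in db/db, and both passed (limma adjusted p = 0.0258 and 0.0273). Pdk3 passed in both too (-0.61 and -0.60, limma adjusted p = 0.0267 and 0.048). With an array left out, Fbln7 passed in 5 and 3 of 9 fits and Pdk3 in 6 and 1 of 9. Cpe averaged 5.22 ± 0.26 in db/db+TSF, 5.37 ± 0.22 in db/db and 6.61 ± 0.29 in db/m (SD, n = 3). Relative to db/m it fell by 1.38 in db/db+TSF and by 1.23 in db/db (limma adjusted p = 0.00239 and 0.00779), and both calls held whichever array was omitted. The nearest to the mean of Cd79a, Cd79b and Ms4a1 were Acox3 (0.986), a peroxisomal acyl-CoA oxidase, Atp7b (0.985), a copper transporter, and Smyd5 (0.975). These are the highest of 17730 values of r, each over 9 arrays that fall into lean and diabetic groups.

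A list of 26 further genes covered the T cell receptor pathway and T cell identity, of which 22 had a single-symbol probe set and 19 were tested. Against db/m, 16 of the 19 lay below 0 in db/db (median -0.13), where 47.8% of all genes did. Of the 19, 1 fell and 0 rose, where 0.462% of all genes fell and 0.592% rose. An unadjusted p under 0.05 was found for 4, where 13.9% of all genes had it. The gene that fell was Sh2d2a, an adaptor of T cell receptor signalling, at 3.08, 3.16 and 2.97 in db/db and 3.52, 3.63 and 3.50 in db/m (-0.48, SE 0.09; limma adjusted p = 0.0344), and it passed in 1 of 9 fits that each left out an array (largest adjusted p 0.129, without db/db replicate 3). Lat, a scaffold of the same pathway, differed by -0.31 (adjusted p = 0.249, limma). For db/db+TSF 13 of the 19 lay below 0, where 50% of all genes did, and 0 passed in limma (median -0.05). Of the 19, 3 had an unadjusted p under 0.05, where 17.2% of all genes did. The summed intensity of the 22 genes was 241 to 245 in db/db+TSF, 227 to 236 in db/db and 258 to 276 in db/m.

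Cytotoxic and NK cell genes, the company in which Nkg7 and Ccl5 are often found, were tested for 14 of 20. Against db/m, 13 of the 14 lay below 0 in db/db, where 47.8% of all genes did, with a median of -0.36. In limma 0 passed, and 8 had an unadjusted p under 0.05, where 13.9% of all genes did. The chemokine gene Xcl1 was at the edge (-0.43, SE 0.09; limma adjusted p = 0.0502), followed by Gzmk, a granzyme (-0.48, limma adjusted p = 0.0644), and Ncr1, an NK receptor (-0.42, limma adjusted p = 0.129). For db/db+TSF 12 of 14 lay below 0 (median -0.31), where 50% of all genes did. Xcl1 fell there (-0.49, SE 0.09, limma adjusted p = 0.0162), where 1.92% of all genes fell. The call held in 6 of 9 fits that each left out an array (largest adjusted p 0.0766, without db/db+TSF replicate 3). Gzmk measured 4.38, 4.39 and 4.20 in db/db+TSF, 3.89, 3.95 and 3.82 in db/db and 4.21, 4.57 and 4.33 in db/m. The db/db+TSF arrays overlapped the lean ones and lay above the saline ones (0.43, SE 0.11; limma adjusted p = 0.259 against db/db). The summed intensity of the list was 178 to 187 in db/db+TSF, 171 to 191 in db/db and 213 to 223 in db/m.

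Of 22 further B cell genes 18 were tested. Against db/m, 13 lay below 0 in db/db, where 47.8% of all genes did, and 0 passed in limma (median -0.10). Of the 18, 3 had an unadjusted p under 0.05 (2 lower and 1 higher), where 13.9% of all genes did. For db/db+TSF 9 lay on each side of 0. Blnk, an adaptor of B cell receptor signalling, rose there (0.47, SE 0.10, limma adjusted p = 0.0311), where 1.22% of all genes rose. The call held in 3 of 9 fits that each left out an array (largest adjusted p 0.123, without db/db+TSF replicate 2). The summed intensity of the list was 359 to 390 in db/db+TSF, 346 to 358 in db/db and 356 to 362 in db/m. This sum leans on Blnk and Ebf1, whose means over the 9 arrays were 6.52 and 6.15, beside 5.12 for the next brightest gene, Tnfrsf13c. It is therefore not a measure of B cell content. Of 18 plasma cell and immunoglobulin genes 9 were tested, and Prdm1, a transcription factor of plasma cells also found in T cells, fell in db/db+TSF against db/m (-0.73, SE 0.16; limma adjusted p = 0.0318; held in 4 of 9 fits, largest adjusted p 0.115 without db/db+TSF replicate 3). Jchain, which joins IgM pentamers, measured 5.05, 4.03 and 3.61 in db/db+TSF, 4.74, 4.50 and 4.15 in db/db and 4.90, 5.87 and 5.04 in db/m, and did not pass in any comparison. As in Ighm, db/db+TSF replicate 1 was the highest of its group and db/m replicate 2 the highest of all.

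**Figure D4:**
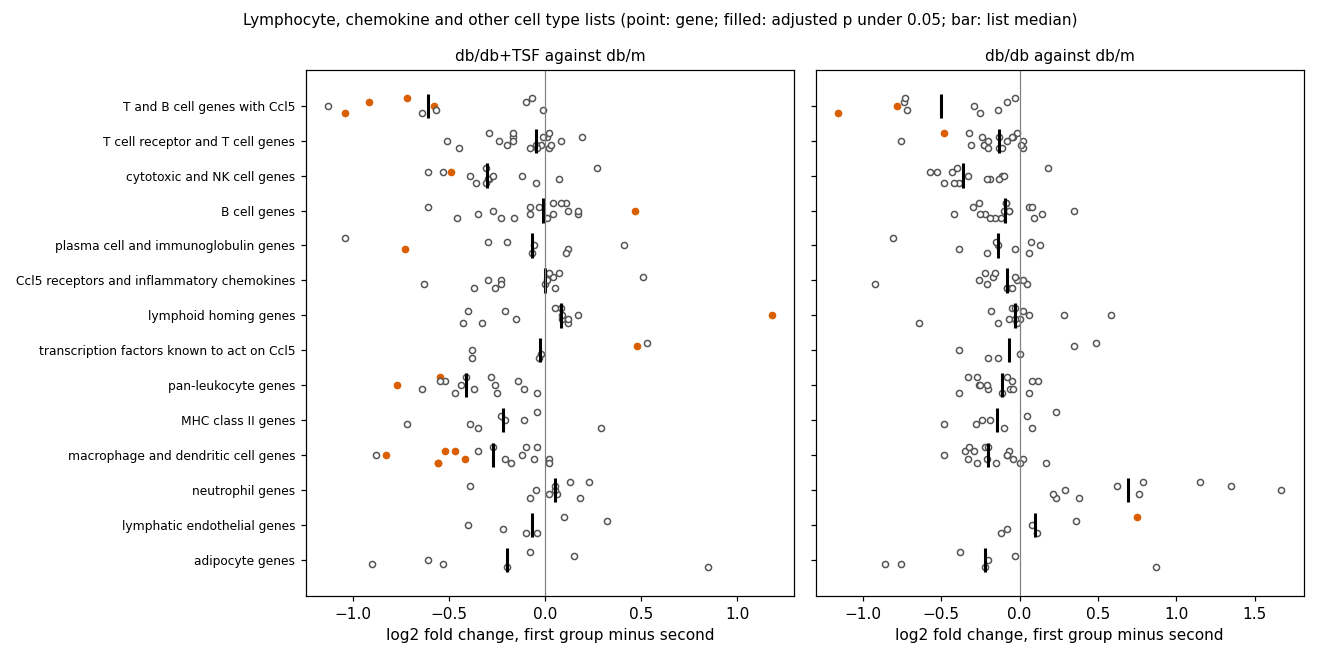
Log2 fold change of every tested gene in each list, with a bar at the list's median, for db/db+TSF against db/m on the left and db/db against db/m on the right; filled points passed an adjusted p of 0.05. The medians of the cytotoxic and NK list lie at -0.31 and -0.36, and those of the B cell list at -0.01 and -0.10.

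The receptors of Ccl5 and other inflammatory chemokines did not pass in any comparison in limma (13 of 19 tested). Relative to db/m, 11 of the 13 were below 0 in db/db, where 47.8% of all genes were, with a median of -0.08. Of the 13, 1 had an unadjusted p under 0.05, where 13.9% of all genes did. Cxcr3, a receptor of activated T cells, differed by -0.26 (adjusted p = 0.339), and its ligand gene Cxcl9 by -0.92 with a wide spread (SE 0.47, limma adjusted p = 0.415). Among 6 tested transcription factors known to act on Ccl5, 0 passed in db/db against db/m in limma. Of the 6, 3 had an unadjusted p under 0.05, where 13.9% of all genes did. They were 1 lower, Irf7, and 2 higher, Klf13 and Rel. Klf13, which acts on the human gene in T cells, rose in db/db+TSF against db/m (0.48, SE 0.11; limma adjusted p = 0.0462), which held in 1 of 9 fits that each left out an array (largest adjusted p 0.137, without db/db+TSF replicate 3). Rel, an NF-kB subunit, differed by 0.53 in that comparison (limma adjusted p = 0.0531).

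Among 13 genes of lymphocyte homing, Cxcl13, a chemokine that gathers B cells into follicles, rose in db/db+TSF against db/m. It measured 6.90, 7.08 and 6.31 in db/db+TSF, 6.14, 6.02 and 6.34 in db/db and 5.67, 5.69 and 5.38 in db/m. Both diabetic groups lay above db/m without overlap. The rise was 2.27-fold (1.18, SE 0.18; limma adjusted p = 0.00704) and held in all 9 fits with an array left out, and the difference of 0.58 in db/db against db/m did not pass (limma adjusted p = 0.168). Ccr7, a homing receptor of naive T cells and migrating dendritic cells, differed by -0.64 in db/db (limma adjusted p = 0.0657) and -0.43 in db/db+TSF (limma adjusted p = 0.15) against db/m. None of the 13 passed for db/db against db/m in limma. An unadjusted p under 0.05 was found for 2 of them (Ccr7, lower, and Cxcl13, higher), and for 13.9% of all genes.

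Lists of other cell types were read beside the lymphocyte genes, and their part in the lymphocyte differences was not tested. Of 15 genes of all leukocytes, all 15 lay below 0 in db/db+TSF against db/m (median -0.41) and Laptm5 (-0.55) and Rac2 (-0.77) fell (limma adjusted p = 0.016 and 0.0312), held in 7 and 3 of 9 fits that each left out an array (largest adjusted p 0.0703 without db/db+TSF replicate 2 and 0.109 without db/db+TSF replicate 3). Over all genes 1.92% fell in that comparison and 50% lay below 0. For db/db 12 of 15 lay below 0, where 47.8% of all genes did, and 0 passed in limma (median -0.11). Of the 15, 4 had an unadjusted p under 0.05 there, where 13.9% of all genes did. Their summed intensity was 437 to 511 in db/db+TSF, 505 to 666 in db/db and 585 to 677 in db/m. Ptprc, which encodes the leukocyte antigen CD45, averaged 3.94 ± 0.18 in db/db+TSF, 4.53 ± 0.24 in db/db and 4.58 ± 0.32 in db/m (SD, n = 3). Against db/m it differed by -0.04 in db/db (95% interval -0.42 to 0.34) and by -0.64 in db/db+TSF (limma adjusted p = 0.0761). Other genes of the list were lower in db/db without passing, among them Dock2 (-0.39), Coro1a (-0.33) and Laptm5 (-0.27).

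Of 17 macrophage and dendritic cell genes, 6 fell in db/db+TSF against db/m (Adgre1, Csf1r, Cd68, Tyrobp, Fcer1g and Mpeg1, from -0.42 to -0.83), where 1.92% of all genes fell. The other 11 did not pass, and the median of the list was -0.27. Each of the 6 calls was lost in at least 4 of 9 limma fits that omitted an array. Their largest adjusted p was 0.0988 to 0.159, without db/db+TSF replicate 2 or 3. None of the 17 passed in db/db against db/m in limma. An unadjusted p under 0.05 was found for 6 of them, and for 13.9% of all genes. Their summed intensity was 604 to 705 in db/db+TSF, 719 to 877 in db/db and 867 to 923 in db/m. Of 8 MHC class II genes none passed in limma in any comparison. In db/db against db/m 3 had an unadjusted p under 0.05, where 13.9% of all genes did. Their sum was 779 to 834 in db/db+TSF, 594 to 1070 in db/db and 950 to 968 in db/m. Neutrophil genes summed to 647 in db/db replicate 3 and to 91.9 to 109 in the other 8 arrays, and 0 of the 10 tested passed in any comparison in limma. All 10 lay above 0 in db/db against db/m (median 0.69, and 0.08 without that array), where 47.8% of all genes lay below 0. Without that array Ccl5 still passed in db/db against db/m, and 1 of the 10 genes fell in place of 2. Of the other lists, 1 of 6 lymphatic endothelial genes, Prox1, rose in db/db against db/m (0.75, limma adjusted p = 0.0233), where 0.592% of all genes rose. The call held in 4 of 9 fits that each left out an array (largest adjusted p 0.0891, without db/db replicate 3). Kap, an androgen-regulated proximal tubule gene among 9 tested for the tissue check, fell in db/db+TSF against db/m (-1.45, limma adjusted p = 0.0306). Its call held in 6 of 9 such fits (largest adjusted p 0.0923 without db/m replicate 3). None of 7 adipocyte genes passed in any comparison in limma. In each comparison with db/m 1 had an unadjusted p under 0.05 (Plin4, higher in both), where 17.2% (db/db+TSF) and 13.9% (db/db) of all genes did.

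Adipocyte genes stood apart in db/m replicate 2, the array that was also the highest of the 9 for Ighm, Jchain and Cd79b. The other B cell genes of the 10 did not share this. Cd79a was at its lowest of the 9 arrays there, at 3.15, and Ms4a1 measured 2.79. Both were highest in db/m replicate 3, at 3.69 and 2.92. Cidec, a lipid droplet gene, measured 5.56 there and 3.34 and 3.72 in the other db/m arrays, and Retn, which encodes the adipocyte hormone resistin, 5.60 against 3.22 and 3.28. The summed intensity of the adipocyte list was 410 to 583 in db/db+TSF and 452 to 999 in db/db, the highest in replicate 3. In db/m it was 911 in replicate 2 and 573 and 612 in the others. Fabp4 was the brightest gene of the list and weighs most in this sum. In db/db replicate 3 Fabp4 and Plin4 measured 9.81 and 5.79, the highest of the 9 arrays for each. Cidec, Retn, Plin1 and Adipoq measured 3.41, 3.08, 3.50 and 2.88 there, and none of them was at its highest. Without db/m replicate 2, Ccl5 fell in db/db+TSF (-1.05, limma adjusted p = 0.0136) and in db/db (-1.17, limma adjusted p = 0.0161), and Cd3e fell in db/db (-0.85, limma adjusted p = 0.0415). Cd3e, Cd3g and Nkg7 in db/db+TSF then missed the threshold, at limma adjusted p-values of 0.0649, 0.0586 and 0.0981. The Ighm difference without that array was -0.55 in db/db+TSF and 0.28 in db/db, and that of Cd79b -0.50 and -0.11.

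**Figure D5:**
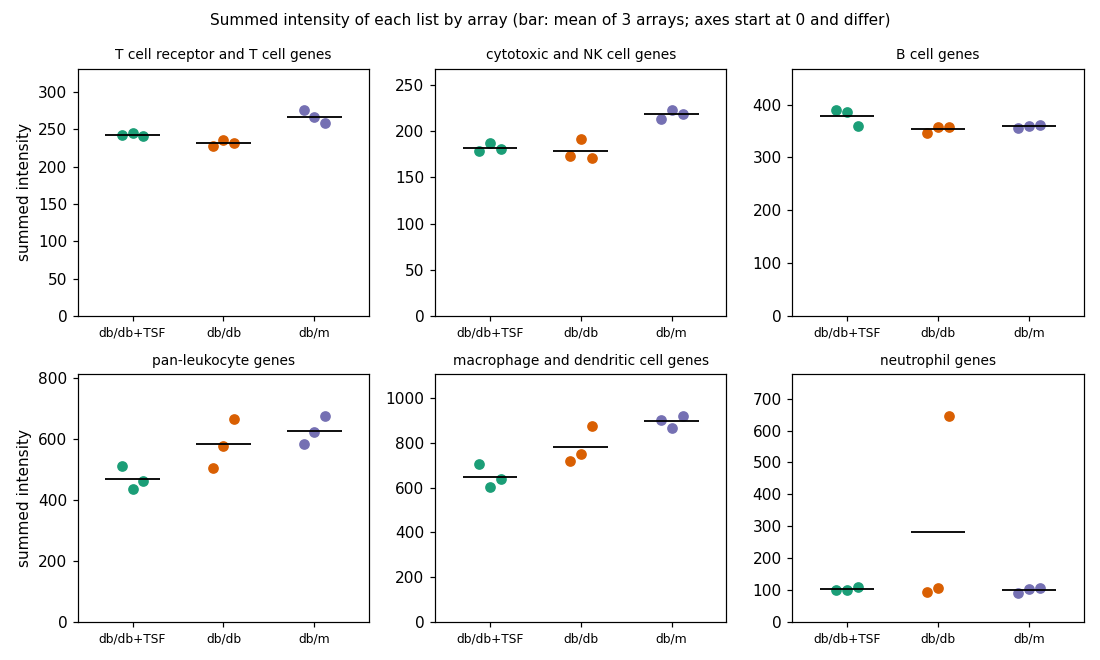
Summed intensity of 6 gene lists, with a point per array and a bar at the mean of 3 arrays, on linear axes that start at 0. The T cell and cytotoxic lists are lower in all 6 diabetic arrays than in db/m, and the neutrophil list stands apart in db/db replicate 3 at 647.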

How the data were processed

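The deposited values are array intensities on a linear scale, 1 per probe set and array, and per the submitters' processing notes Affymetrix Expression Console and Transcriptome Analysis Console were used; their settings for background, scaling and summary: not given in the sources used here. Across arrays the lowest intensity was 1.34, array medians lay between 10.3 and 11.2, and any 2 arrays shared between 3 and 70 identical values of 41345, so none was a copy. The number of arrays limits the precision, and without detection calls a low value cannot be told from background.

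Probe sets were named from the platform annotation: 23521 had 1 symbol and 1814 several, and 16010 others, array controls included, were not used. Of those with 1 symbol, 23328 matched RefSeq's GRCm38 gene table, and 0 symbols changed. The brightest probe set by mean stood for a gene. Intensities were transformed as log2(value + 1), which understates the change of dim genes, and genes whose mean lay below the 30th percentile of the means of the 41345 probe sets (2.65) were left out. Limma version 3.58.1 in R version 4.3.3 fitted 1 mean per group to all 9 arrays, with eBayes and no rescaling, and p-values were Benjamini-Hochberg adjusted over the 17740 genes tested with a threshold of 0.05. The fit was tested on simulated data. All p-values measure the spread between 3 arrays per group.

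The 10 genes and the 14 lists (182 of 206 entries had a single-symbol probe set) were chosen with earlier results of these data known. Genes named from the lists passed the threshold or were among the 3 of smallest p per list in db/db against db/m, and the 3 genes of highest r were named per pattern. Ptprc, Slc34a1, Lrp2, Cidec, Retn, Fabp4, Ebf1 and the neighbours of the CD3 genes and Ccl5 were named after their values were seen. Replicate numbers did not pair the arrays: correlations of same-numbered deviations from group means ran from -0.08 to 0.15. Alternatives covered the probe set, filter, scaling, pseudocount, variance model, array weights, arrays in the fit, replicate block, threshold and leaving out each array.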

Additional observations from a re-analysis of the deposited data

How the results depend on the processing

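Ccl5 kept its direction and its call against db/m under every alternative tried except the fit without moderation. The count of all genes past the threshold in db/db against db/m was 187, and 26 without moderation, 442 at a threshold of 0.1 and 72 to 194 with an array left out; in db/db+TSF against db/m it was 556, and 73, 1012 and 213 to 563. Of the 10 genes, 2 passed in db/db against db/m, and 0 without moderation, 4 with array weights, 4 at a threshold of 0.1 and 1 to 4 with an array left out; in db/db+TSF against db/m 4 passed, and 0 without moderation, 2 with only the 2 groups compared and 1 to 4 with an array left out. These counts over the 10 genes were chosen after seeing the data. With the replicate block 3 of the 10 passed in each comparison with db/m and 137 and 434 genes passed in all; Cd8a in db/db passed (adjusted p = 0.0475, limma) and Nkg7 in db/db+TSF did not (adjusted p = 0.0659), and the arrays share only a number. Between db/db+TSF and db/db the count stayed at 0 under all alternatives.

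Signs turned only for differences that had not passed. In db/db against db/m Cd79a measured 0.06 with array weights, 0.01 without db/db replicate 1 and 0.14 on omitting db/m replicate 3, and Ighm 0.03 (omitting db/db replicate 3) and 0.28 (omitting db/m replicate 2); with an array left out they ranged from -0.13 to 0.14 and from -0.67 to 0.28. In db/db+TSF against db/db Nkg7 measured -0.06 with median scaling, -0.08 and -0.04 without db/db+TSF replicates 1 and 3, and -0.06 and -0.04 on omitting db/db replicates 1 and 3 (range -0.08 to 0.14); Ms4a1 0.04 without db/db+TSF replicate 3 and 0.03 on omitting db/db replicate 2 (-0.07 to 0.04); Cd8a -0.01 on omitting db/db replicate 1 (-0.01 to 0.36); and, on omitting db/db replicate 3, Ccl5 -0.01 (-0.01 to 0.28) and Cd79a 0.02 (-0.08 to 0.02). In db/db+TSF against db/m Cd3d measured 0.03 with array weights, 0.01 without db/db+TSF replicate 2 and 0.06 on omitting db/m replicate 3 (-0.10 to 0.06), and Cd79a 0.03 with array weights and 0.10 on omitting db/m replicate 3 (-0.17 to 0.10). The cause was not tested. Dim probe sets limit what can be seen of Ms4a1, Cd3d and Cd79a. The same limit bears on the size of the differences of Cd3g and Cd8a. In db/db+TSF and db/db Cd3g averaged 3.48 and 3.66 and Cd8a 3.71 and 3.56, beside array medians of 3.50 to 3.61. Sh2d2a averaged 3.07 in db/db, below those medians.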

Other observations

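The genes around the CD3 cluster and around Ccl5, within 100000 bases on either side, were read out after results were seen. Mpzl2, an adhesion protein gene that spans 45042344 to 45054043 on chromosome 9 (GRCm38), beyond Cd3e, measured 8.01, 7.79 and 7.79 in db/db+TSF, 7.91, 8.05 and 8.04 in db/db and 6.90, 7.21 and 7.04 in db/m. It rose where Cd3e fell, by 0.82 in db/db+TSF and 0.95 in db/db against db/m (limma adjusted p = 0.00299 and 0.00296), and both calls held whichever array was omitted. The 4 other tested neighbours, Kmt2a, Atp5l, Ube4a and Mpzl3, did not pass in any comparison, with limma adjusted p-values of 0.515 or more. Around Ccl5, the chemokine genes Ccl9 and Ccl6 differed by -0.21 and 0.43 in db/db against db/m (limma adjusted p = 0.63 and 0.42). E230016K23Rik, whose span contains Ccl6, averaged 5.50 in db/db+TSF, 5.13 in db/db and 4.60 in db/m and rose in db/db+TSF against db/m (0.90, limma adjusted p = 0.00499), whichever array was omitted. None of the other tested genes around Ccl5 passed in any comparison in limma.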
